A study of Mus musculus with 12 samples.

Results

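The 40 genes described here act at the passage from G2 into mitosis, in the building of the spindle and kinetochores, and in the division of the cell. They were taken by symbol from a list of mitotic kinases, kinesins, kinetochore genes and genes of the anaphase-promoting complex pathway. All 40 were found, among 29549 genes in the deposited table that pairs symbols with identifiers, and all 40 passed the filter on low counts. RNA was sequenced from 12 libraries in 4 groups of 3, made from cells that the labels call B16F10, a transplantable mouse melanoma line. The group sgRnf19a_IR carried a guide against Rnf19a, a gene for a ubiquitin ligase of the RBR class, and had 24 h of IR, an abbreviation left unexplained in the labels. The group control_IR carried the guide sgNC and had the same treatment. The groups sgRnf19a and control carried the same guides and were untreated. Rnf19a-deficient is the labels' word for the cells with this guide. The sources used here do not say whether either line was a clone or a pool, how the nuclease was delivered, or whether a group's libraries were separate cultures. The p-values therefore reflect library-to-library spread, which may be technical. The design allows comparisons of what IR changed in each line, what the guide changed with and without IR, and whether the change with IR differed between the lines.

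Entry into mitosis is driven by cyclin B bound to Cdk1, which Cdc25 phosphatases switch on and Polo and Aurora kinases assist. Kinesins and spindle proteins then sort the chromosomes, kinetochores hold them to microtubules, and the checkpoint kinases Bub1 and Ttk delay separation until every chromosome is attached. The anaphase-promoting complex with Cdc20 next marks securin and cyclin B for destruction, and a contractile ring divides the cell. Most of these genes are transcribed in G2 and mitosis through complexes built on the MuvB core with B-Myb and FoxM1, and are shut off in resting cells and after DNA damage, when the MuvB core joins the repressors p107 or p130. MuvB meets DNA at a short element called the cell cycle genes homology region (CHR), often downstream of CCAAT boxes bound by NF-Y.

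These elements were looked for in RefSeq promoter windows of the build GRCm38.p6, from 250 bases before to 50 bases after each gene's start. Windows were matched by symbol for 36 of the 40 genes. Tpx2, Cdc25c, Aurkb and Kif20a had no entry. A CHR, searched as TTTGAA or TTCGAA on both strands, lay in 30 of the 36 windows (83.3%), against 5254 of 27025 windows of all genes (19.4%). CCAAT on either strand lay in 27 of 36 (75.0%), against 37.9% of all windows, and both elements in 25 of 36 (69.4%), against 7.7%. TTCGAA is its own reverse complement, and neither motif contains the other. A match is a description of letters, not a bound site. The windows below give the 120 bases before the RefSeq start, on the gene's own strand, with CHR and CCAAT letters of either strand in capitals (TTCAAA and ATTGG are the reverse complements). By the deposited gene coordinates, Ccnf, Ccnb1, Ube2c, Cdc20 and Cdk1 start inside these windows. Part of their printed letters is then within the gene, with the CHR of Ccnf, that of Ube2c and the Cdk1 CHR nearer the start. They are shown because all 6 carry CCAAT letters and 5 of them a CHR, Ccnb1 being without one, while their levels after IR were unlike, as described further on: Kif11 was lower with IR in both lines, Ccnf lower in sgRnf19a cells, Ccnb1 lower in control cells, Ube2c called in neither, Cdc20 higher in control cells and Cdk1 higher in both.
Kif11, chr19:37376262-37376381, plus strand: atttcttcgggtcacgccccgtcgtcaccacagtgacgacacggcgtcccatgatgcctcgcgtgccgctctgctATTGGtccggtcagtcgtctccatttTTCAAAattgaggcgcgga
Ccnf, chr17:24251410-24251529, minus strand: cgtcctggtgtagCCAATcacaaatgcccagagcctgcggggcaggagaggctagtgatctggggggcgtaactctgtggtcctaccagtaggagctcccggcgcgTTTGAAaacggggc
Ccnb1, chr13:100786487-100786606, minus strand: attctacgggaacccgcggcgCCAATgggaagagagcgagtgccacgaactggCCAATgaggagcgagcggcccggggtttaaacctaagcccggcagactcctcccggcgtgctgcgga
Ube2c, chr2:164769809-164769928, plus strand: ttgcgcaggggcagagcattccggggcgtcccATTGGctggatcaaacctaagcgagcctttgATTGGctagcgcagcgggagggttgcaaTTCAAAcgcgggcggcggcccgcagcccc
Cdc20, chr4:118437344-118437463, minus strand: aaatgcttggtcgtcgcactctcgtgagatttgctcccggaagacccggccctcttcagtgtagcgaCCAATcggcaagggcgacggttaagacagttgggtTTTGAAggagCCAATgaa
Cdk1, chr10:69352913-69353032, minus strand: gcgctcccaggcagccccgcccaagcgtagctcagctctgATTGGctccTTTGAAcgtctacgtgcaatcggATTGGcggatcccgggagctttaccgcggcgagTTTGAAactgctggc

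In these letters Kif11 has a CHR that begins 19 bases before the start and a CCAAT box upstream of it, and Cdk1 has 2 CHR elements and 2 CCAAT boxes. The Ccnb1 window has 2 CCAAT boxes and none of the CHR letters searched, which says only that those letters are not in this window. Of the genes with a window, a CHR was present in 17 of 18 called lower with IR in sgRnf19a cells, 2 of 4 called higher and 11 of 14 not called. In control cells it was present in 20 of 24 called lower, 4 of 6 called higher and 6 of 6 not called.

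Levels are in CPM, counts per M counts of a library after TMM scaling (M for mega), and values of a group are given in the order of replicates 1, 3 and 4 for sgRnf19a_IR, 1, 4 and 5 for control_IR, and 1, 2 and 3 for sgRnf19a and for control. Total counts were 34.3 to 45.6 M in the 6 IR-treated libraries and 62.7 to 71.3 M in the 6 untreated ones. The IR-treated libraries also differed in the RNA they held. Ribosomal RNA genes took 11.4% to 22.2% of their counts, against 0.408% to 0.813% in untreated libraries. A long-minus-short value, the median log2 level of coding genes with transcripts longer than 6 kb less the median for those shorter than 1 kb, was -1.03 to 0.986 with IR, against 1.56 to 2.61 without. For genes named with a log2 fold change, the value is therefore also given, where it moves by over 1.5 times or changes its call, once length and GC content of the transcripts have been regressed out in each library, and such values are called corrected. Of 8 melanocyte markers, 4 (Tyr, Tyrp1, Mlana and Slc45a2) were at 0 in all 12 libraries, and the list summed to 3.73 to 10.5 CPM in sgRnf19a_IR, 2.30 to 3.09 CPM in control_IR, 15.8 to 16.4 CPM in sgRnf19a and 9.53 to 13.8 CPM in control, most of it Mitf. The labelled melanoma identity is thus not seen in these markers. Of 7 epithelial markers 6 were detected, at sums of 394 to 684 CPM in sgRnf19a_IR, 1043 to 1216 CPM in control_IR, 559 to 572 CPM in sgRnf19a and 658 to 830.4 CPM in control. Nearly all of these sums was Krt8, Krt18 and Krt19. Epcam was at 0.596 to 2.21 CPM, Cdh1 at 0.181 CPM or less, and Krt14 at 0.16 CPM in sgRnf19a_IR replicate 4 alone. All 6 fibroblast markers were detected, at sums of 100.5 to 203 CPM in sgRnf19a_IR, 398 to 428 CPM in control_IR, 58.3 to 144 CPM in sgRnf19a and 470.5 to 503 CPM in control. Most of these sums was Col1a1 and Col3a1, while Pdgfra was at 5.71 CPM or less, Dcn at 4.07 CPM or less and Thy1 at 1.95 CPM or less. The part of the marker lists in the results was not tested. The targeted gene Rnf19a was at 18.1, 11.6 and 37.7 CPM in sgRnf19a_IR, 4.37, 8.06 and 5.39 CPM in control_IR, 27.4, 25.6 and 22.6 CPM in sgRnf19a and 33.5, 29.4 and 21.5 CPM in control. These levels overlapped between the untreated lines and were higher in sgRnf19a_IR than in control_IR, and since a small edit made by a guide need not lower an mRNA, they do not check the labels.

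With IR, 32 of the 40 genes had a log2 fold change below 0 in sgRnf19a cells and 30 in control cells. In sgRnf19a cells 4 of the 40 rose and 19 fell (edgeR's quasi-likelihood test, Benjamini-Hochberg adjusted p under 0.05 over 18183 genes), where 18% of all genes rose and 17.6% fell (35.6% in either direction). In control cells 6 rose and 26 fell, where 22.2% of all genes rose and 25.7% fell (47.9% in either direction). IR-treated and untreated libraries did not overlap for 5 higher and 25 lower genes in sgRnf19a cells, where this held for 23.2% and 26.6% of all genes, and for 8 higher and 27 lower genes in control cells, where it held for 30% and 32.1%. The median log2 fold change of the 40 was -0.644 in sgRnf19a cells, against -0.0163 over all genes, and -1.33 in control cells, against -0.0205. Corrected, 5 rose and 26 fell in sgRnf19a cells (median -0.664, against 17.8% of all genes higher and 19.5% lower) and 4 rose and 28 fell in control cells (median -0.991, against 16.9% and 26%). In both lines 17 fell (Ccnb2, Bub1b, Ttk, Fbxo5, Kif11, Kif20b, Kif23, Kif4, Tpx2, Cenpe, Cenpf, Knl1, Anln, Ect2, Racgap1, Top2a and Mki67), 4 rose (Cdk1, Pttg1, Cdca3 and Birc5) and 6 were called in neither (Cdc25c, Plk1, Aurka, Aurkb, Ube2c and Cdca8). In these bulk libraries, fewer cells in G2 and mitosis and less of these mRNAs per cell cannot be told apart. The number called lower in sgRnf19a cells was 11 without sgRnf19a_IR replicate 1, 12 without sgRnf19a replicate 1 or 2, and 8 when only the 2 groups compared were fitted. Over all genes, calls in either direction were then 4929 of 19478, 5233 of 18281, 4722 of 18239 and 4418 of 16886, in the same order. The calls of Ttk, Fbxo5, Kif23, Anln and Ect2 in sgRnf19a cells ended without any 1 of the 6 libraries other than sgRnf19a_IR replicate 4, that of Kif11 without sgRnf19a_IR replicate 1 or any 1 sgRnf19a library, and those of Kif4 and Top2a without sgRnf19a_IR replicate 1.

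**Figure D1:**
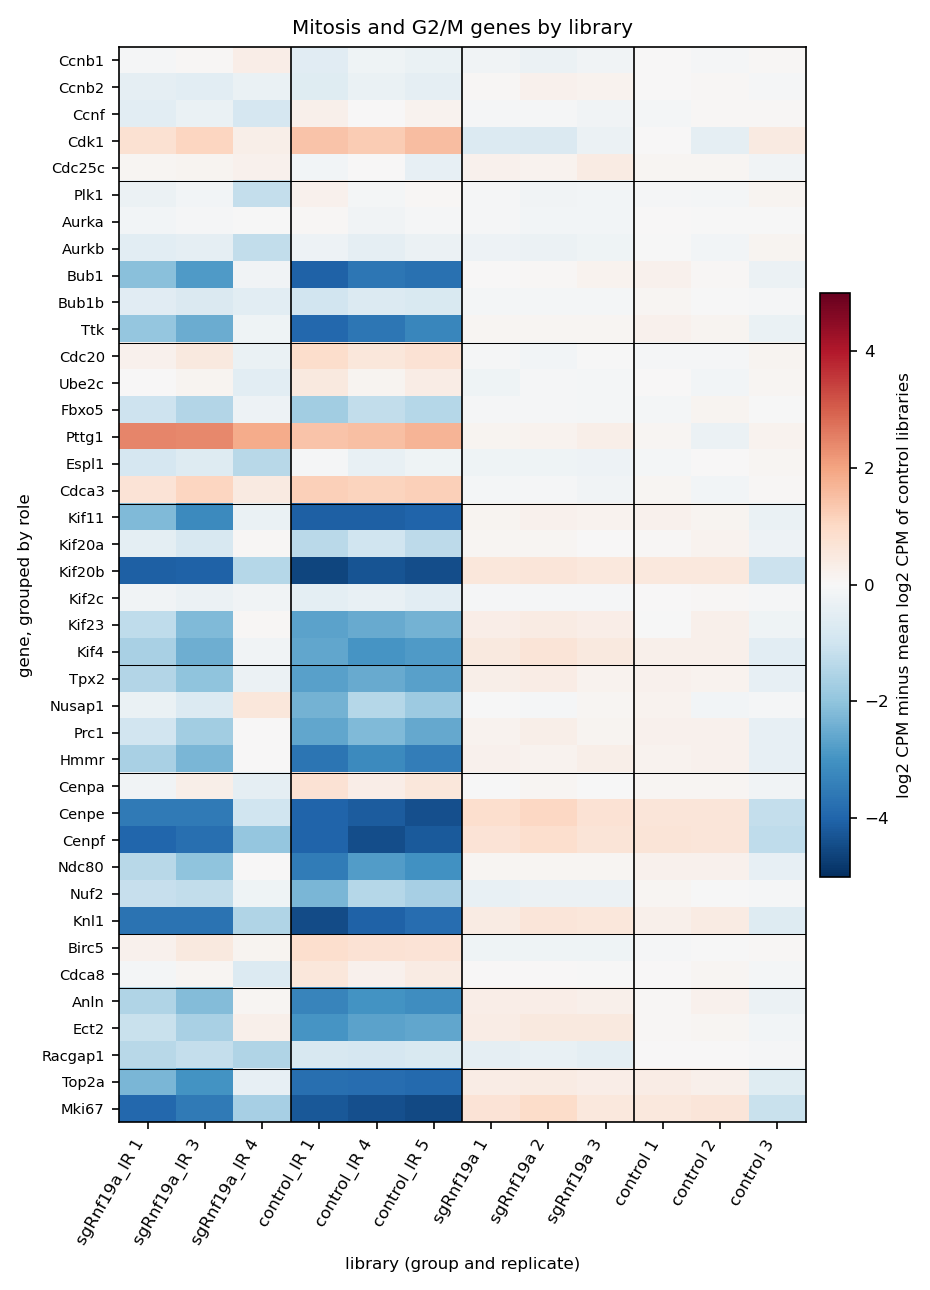
Heatmap of the 40 genes (rows, grouped by role) in the 12 libraries (columns), as log2 CPM minus the mean log2 CPM of the 3 control libraries; red is higher and blue lower. The 6 IR-treated columns are blue for most rows and red, in part faintly, for Cdk1, Pttg1, Cdca3 and Birc5. In the darkest blue rows, such as Mki67 and Kif11, sgRnf19a_IR replicate 4 is paler than the other IR-treated libraries.

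One library in each of 2 groups stood apart. In sgRnf19a_IR replicate 4, 27 of the 40 genes were above both other libraries of its group, 19 of them at over 2 times their mean, up to 6.31 times for Kif20b, and the other 13 were below both, down to 0.506 times for Plk1. In control replicate 3, 27 genes were below both other control libraries, down to 0.272 times their mean for Cenpf, and 9 above both, up to 1.55 times for Cdk1. Of the 19 genes, 11 had transcripts over 4 kb, as had all 4 genes that were at under 0.5 times the others' mean in control replicate 3. The mean log2 level of the 40 genes, set against its mean in control, was -1.06, -1.23 and -0.36 in sgRnf19a_IR, -1.62, -1.52 and -1.54 in control_IR, 0.091, 0.13 and 0.10 in sgRnf19a, and 0.13, 0.11 and -0.23 in control. The long-minus-short value was 0.986 in sgRnf19a_IR replicate 4, against 0.10 and -0.63 in the others of its group, and 1.56 in control replicate 3, against 1.995 and 2.30 in the other control libraries. The part of that shift in the 2 libraries' levels was not tested. Without sgRnf19a_IR replicate 4, 5 genes rose and 25 fell with IR in sgRnf19a cells (median -0.781), and without control replicate 3, 5 rose and 25 fell in control cells (median -1.40). Over all genes, calls in sgRnf19a cells were then 8773 of 19217, against 6475 of 18183 with all libraries. In control cells they were 8144 of 18367, against 8707 of 18183.

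**Figure D2:**
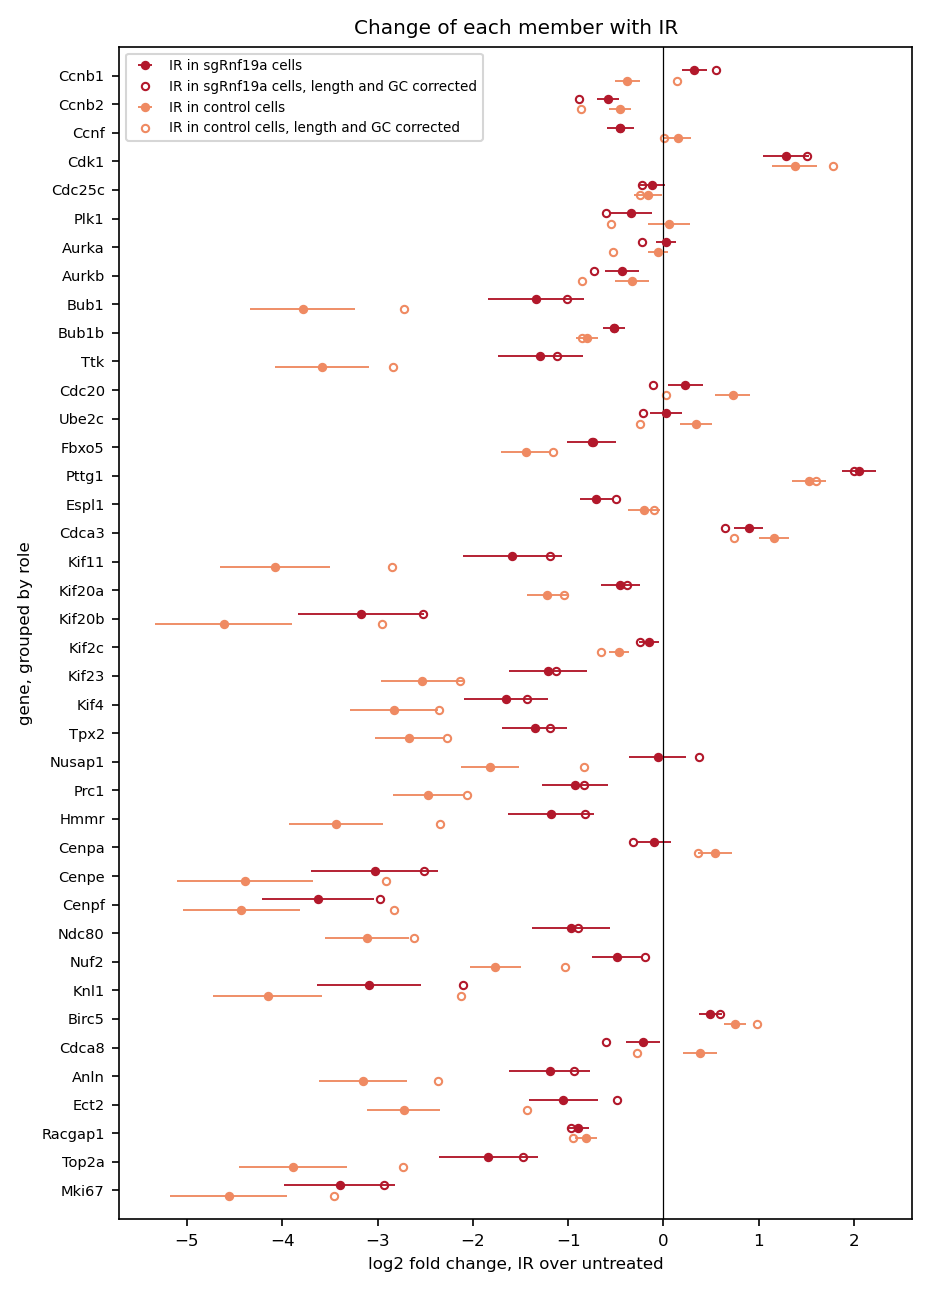
Log2 fold change with IR of each gene in sgRnf19a cells (dark) and control cells (light), with its SE as a bar, and the value corrected for transcript length and GC content as an open circle. In control cells values run from -4.61 (Kif20b) to 1.53 (Pttg1), and in sgRnf19a cells from -3.62 (Cenpf) to 2.05 (Pttg1).

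Among the genes of mitotic entry, Cdk1 rose with IR in both lines while its partner cyclins did not as fitted. Cdk1, the kinase that drives mitosis, was at 356, 441 and 259 CPM in sgRnf19a_IR, 569, 516 and 617 CPM in control_IR, 133, 128 and 172 CPM in sgRnf19a and 214, 155 and 286 CPM in control. Every IR-treated library was above every untreated library of its line. The rise was 2.44-fold in sgRnf19a cells (a log2 change of 1.29, SE 0.24, edgeR adjusted p = 0.00166) and 2.599-fold in control cells (1.38, SE 0.24, edgeR adjusted p = 0.000581). Ccnb1, which encodes cyclin B1, was at 259.9, 284 and 339 CPM in sgRnf19a_IR, 180.3, 233 and 212 CPM in control_IR, 241, 223 and 239.9 CPM in sgRnf19a and 272, 259 and 281 CPM in control. Its IR-treated libraries all lay above the untreated ones in sgRnf19a cells and all below them in control cells. In sgRnf19a cells the log2 fold change was 0.33 (SE 0.13, edgeR adjusted p = 0.08) and, corrected, 0.55 and called higher. In control cells Ccnb1 fell (-0.38, SE 0.13, edgeR adjusted p = 0.036), a call that ended when corrected (0.14) and without any 1 of the 6 libraries other than control_IR replicate 4. Ccnb2, which encodes the second B-type cyclin, fell in both lines, with log2 fold changes of -0.58 in sgRnf19a cells and -0.45 in control cells. Ccnf, whose product cyclin F is a substrate receptor of an SCF ubiquitin ligase, fell in sgRnf19a cells (-0.45, SE 0.14, edgeR adjusted p = 0.0256, lost without sgRnf19a replicate 1 or 2) and had a value of 0.15 in control cells (edgeR adjusted p = 0.409). Cdc25c, a phosphatase that activates Cdk1, was at 25.0 to 39.1 CPM in IR-treated and 29.1 to 44.4 CPM in untreated libraries and passed in neither line.

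Of the 6 mitotic kinase genes, 2 fell in sgRnf19a cells and 3 in control cells, and none rose. The checkpoint kinase gene Bub1 was at 54.3, 32.05 and 203 CPM in sgRnf19a_IR, 14.02, 18.9 and 17.4 CPM in control_IR, 235, 238 and 258 CPM in sgRnf19a and 266, 239.8 and 189 CPM in control. All IR-treated libraries were below the untreated ones of their line, but sgRnf19a_IR replicate 4 came close to them. Bub1 fell 13.8-fold in control cells (-3.79, SE 0.55, edgeR adjusted p = 0.00021; corrected -2.72), and in sgRnf19a cells its value was -1.34 (SE 0.50, edgeR adjusted p = 0.0562), called at -1.01 when corrected and at -2.50 without replicate 4. Ttk, which encodes the checkpoint kinase Mps1, was at 13.04, 8.94 and 43.05 CPM in sgRnf19a_IR, 3.302, 4.101 and 5.12 CPM in control_IR, 53.5, 52.7 and 53.1 CPM in sgRnf19a and 56.95, 54.7 and 38.98 CPM in control. It fell 2.45-fold in sgRnf19a cells (-1.29, SE 0.45, edgeR adjusted p = 0.0422) and 11.98-fold in control cells (-3.58, SE 0.50, edgeR adjusted p = 0.000166; corrected -2.84). Bub1b, which encodes the checkpoint protein BubR1, fell by smaller amounts, -0.52 in sgRnf19a and -0.80 in control cells. Plk1, Aurka and Aurkb, the Polo and Aurora kinases, passed in neither line. Plk1 was at 116, 131 and 62.6 CPM in sgRnf19a_IR, 168, 135 and 148 CPM in control_IR, 136, 126 and 131 CPM in sgRnf19a and 138, 134 and 159.6 CPM in control, so that the groups overlapped in both lines. Corrected, Plk1 was called lower in both lines (-0.60 in sgRnf19a and -0.55 in control cells), as was Aurkb (-0.72 in sgRnf19a and -0.85 in control cells), and Aurka in control cells (-0.53).

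The 6 regulators and substrates of the anaphase-promoting complex held 2 of the 4 genes that rose in sgRnf19a cells and 3 of the 6 that rose in control cells. Pttg1, which encodes securin, the inhibitor of separase, was at 96.3, 92.7 and 64.3 CPM in sgRnf19a_IR, 47.7, 49.4 and 56.5 CPM in control_IR, 19.4, 19.8 and 21.8 CPM in sgRnf19a and 19.1, 14.6 and 19.7 CPM in control. The 6 IR-treated libraries were all above the 6 untreated ones. Pttg1 rose 4.15-fold in sgRnf19a cells (2.05, SE 0.18, edgeR adjusted p = 2.27e-05) and 2.88-fold in control cells (1.53, SE 0.18, edgeR adjusted p = 8.69e-05), and stayed called in all 19 and 18 alternatives run for these comparisons. Espl1, which encodes separase itself, fell in sgRnf19a cells (-0.71, SE 0.17, edgeR adjusted p = 0.00747) and had -0.21 in control cells (edgeR adjusted p = 0.351). Cdca3, whose product helps an SCF ligase degrade Wee1, was at 157, 206 and 130.3 CPM in sgRnf19a_IR, 221, 207 and 222 CPM in control_IR, 89.5, 91.7 and 84.6 CPM in sgRnf19a and 103, 87.6 and 101 CPM in control. With no overlap in either line, it rose 1.86-fold in sgRnf19a (edgeR adjusted p = 0.00115) and 2.23-fold in control cells (edgeR adjusted p = 0.000153). Cdc20, the activator of the complex, rose in control cells (0.73, SE 0.19, edgeR adjusted p = 0.00643), a call that ended when corrected (0.025), and was at 0.23 in sgRnf19a cells (edgeR adjusted p = 0.367). Cdc20 overlaps Elovl1 on the opposite strand, and the sources used here do not say whether counting used strand, so its values are uncertain. Ube2c, its ubiquitin-conjugating enzyme, passed in neither line (0.025 in sgRnf19a and 0.34 in control cells, the second -0.25 when corrected). Fbxo5, which encodes the inhibitor Emi1, fell in both, 1.68-fold in sgRnf19a cells (edgeR adjusted p = 0.0383) and 2.72-fold in control cells (edgeR adjusted p = 0.000706).

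All 6 kinesin genes fell in control cells and 4 of 6 in sgRnf19a cells. Kif11, which encodes Eg5, the motor that pushes the spindle poles apart, was at 40.2, 20.6 and 149.7 CPM in sgRnf19a_IR, 10.97, 11.04 and 11.7 CPM in control_IR, 208, 214 and 209.8 CPM in sgRnf19a and 216, 205 and 148 CPM in control. The control_IR libraries lay close together, while sgRnf19a_IR replicate 4 was just above the lowest control library. Kif11 fell 3.001-fold in sgRnf19a cells (-1.58, SE 0.52, edgeR adjusted p = 0.0338) and 16.9-fold in control cells (-4.08, SE 0.58, edgeR adjusted p = 0.000187; corrected -2.85). Kif20b, a kinesin of cytokinesis, was at 5.48, 5.69 and 35.2 CPM in sgRnf19a_IR, 3.905, 4.704 and 4.32 CPM in control_IR, 140.2, 142 and 137 CPM in sgRnf19a and 136, 137 and 44.7 CPM in control. It had the lowest log2 fold change of the 40 in control cells (-4.61, SE 0.72, edgeR adjusted p = 0.000294; corrected -2.95) and fell 9.02-fold in sgRnf19a cells (-3.17, SE 0.66, edgeR adjusted p = 0.00334; corrected -2.52). Kif23, the motor subunit of centralspindlin, and Kif4, a chromosome-bound motor, fell in both lines, at -1.22 and -1.65 in sgRnf19a and -2.53 and -2.82 in control cells. Kif20a, a motor of the central spindle, fell 2.33-fold in control cells and did not pass in sgRnf19a cells (-0.45, edgeR adjusted p = 0.111). Kif2c, a microtubule-depolymerising kinesin, had the smallest fall of the family in control cells (-0.47, edgeR adjusted p = 0.00289). Kif20a overlaps Cdc23 and Kif4 overlaps Pdzd11 on the opposite strand and both are uncertain in the same way as Cdc20.

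The spindle proteins Tpx2, Nusap1, Prc1 and Hmmr all fell in control cells. In sgRnf19a cells Tpx2 passed as fitted, and Tpx2, Prc1 and Hmmr when corrected. Tpx2, the activator of Aurora A on the spindle, was at 118, 79.5 and 264 CPM in sgRnf19a_IR, 49.2, 56.4 and 49.3 CPM in control_IR, 395, 414 and 367 CPM in sgRnf19a and 371, 368 and 245 CPM in control. Its fall was 2.55-fold in sgRnf19a cells (-1.35, SE 0.35, edgeR adjusted p = 0.01) and 6.35-fold in control cells (-2.67, SE 0.36, edgeR adjusted p = 0.000153; corrected -2.27). Nusap1, a microtubule-bundling protein, was at 126, 98.8 and 238 CPM in sgRnf19a_IR, 30.99, 60.1 and 45.2 CPM in control_IR, 158, 154 and 171 CPM in sgRnf19a and 181, 147 and 153 CPM in control. Its groups overlapped in sgRnf19a cells, where the log2 fold change was -0.06 (SE 0.30, edgeR adjusted p = 0.901), and not in control cells, where it fell 3.53-fold (-1.82, SE 0.31, edgeR adjusted p = 0.000487; corrected -0.83). Prc1, which cross-links microtubules of the central spindle, and Hmmr, a spindle assembly factor, were at -0.93 and -1.18 in sgRnf19a cells (edgeR adjusted p = 0.0558 and 0.0609; corrected -0.84 and -0.82, edgeR adjusted p = 0.027 and 0.0352) and fell in control cells, at -2.47 and -3.44 (Hmmr corrected -2.35). Without sgRnf19a_IR replicate 4 both were called lower in sgRnf19a cells, at -1.53 and -2.15. Nusap1 overlaps Oip5 and Prc1 overlaps Rccd1 on the opposite strand and are uncertain in the same way.

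Of 6 kinetochore and centromere genes, 3 fell in sgRnf19a cells and 5 in control cells. Cenpf, a large coiled-coil protein of the outer kinetochore, was at 10.1, 11.7 and 41.5 CPM in sgRnf19a_IR, 9.73, 7.26 and 8.64 CPM in control_IR, 253, 278 and 248 CPM in sgRnf19a and 246, 239.8 and 66.02 CPM in control. No IR-treated library reached the lowest untreated one, control replicate 3. Cenpf fell 12.3-fold in sgRnf19a cells (-3.62, SE 0.59, edgeR adjusted p = 0.000699; corrected -2.97) and 21.6-fold in control cells (-4.43, SE 0.61, edgeR adjusted p = 0.000164; corrected -2.82). The kinetochore motor Cenpe and the scaffold Knl1 fell in both lines as well, at -3.03 and -3.09 in sgRnf19a cells and -4.39 and -4.16 in control cells. Corrected, Knl1 was at -2.098 in sgRnf19a and -2.12 in control cells, and Cenpe at -2.91 in control cells. Ndc80, the microtubule-binding subunit of the complex of that name, was at 32.8, 20.98 and 87.1 CPM in sgRnf19a_IR, 7.67, 12.2 and 10.4 CPM in control_IR, 92.3, 92.4 and 90.8 CPM in sgRnf19a and 98.3, 99.03 and 64.2 CPM in control. It fell 8.62-fold in control cells (-3.11, SE 0.44, edgeR adjusted p = 0.000185), and in sgRnf19a cells was at -0.97 (edgeR adjusted p = 0.0867), called when corrected (-0.90) and without sgRnf19a_IR replicate 4 (-1.78). Its partner Nuf2 fell 3.39-fold in control cells (-1.76, corrected -1.03) and did not pass in sgRnf19a cells (-0.48, edgeR adjusted p = 0.179; -0.89 and called without that replicate 4). Cenpa, the centromeric histone H3 variant, rose in control cells (0.55, SE 0.18, edgeR adjusted p = 0.0248), a call lost when corrected (0.37), without control replicate 3 (0.45), and without control_IR replicate 1 or 5.

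Neither of the 2 chromosomal passenger subunits was called lower in either line as fitted. Birc5, which encodes survivin, was at 165, 198 and 157 CPM in sgRnf19a_IR, 256, 232 and 232 CPM in control_IR, 124, 123 and 122 CPM in sgRnf19a and 137, 142 and 149 CPM in control. It rose 1.41-fold in sgRnf19a cells (0.49, SE 0.12, edgeR adjusted p = 0.00716) and 1.68-fold in control cells (0.75, SE 0.12, edgeR adjusted p = 0.000312), with no overlap between IR-treated and untreated libraries of a line. Cdca8, which encodes borealin and overlaps 9930104L06Rik on the opposite strand, was at -0.21 in sgRnf19a cells (called lower, -0.60, when corrected) and 0.38 in control cells (corrected -0.27), and passed in neither as fitted.

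The 3 cytokinesis genes fell in both lines. Racgap1, the GTPase-activating subunit of centralspindlin, was at 79.8, 90.9 and 71.8 CPM in sgRnf19a_IR, 117, 115 and 120.2 CPM in control_IR, 149, 157 and 146 CPM in sgRnf19a and 211, 210.2 and 197 CPM in control. Its 4 groups did not overlap, and sgRnf19a lay below control with and without IR. With IR it fell 1.87-fold in sgRnf19a cells (-0.90, SE 0.12, edgeR adjusted p = 0.000192) and 1.75-fold in control cells (-0.81, SE 0.12, edgeR adjusted p = 0.000185). Ect2, an exchange factor needed for furrowing at the cleavage site, was at 69.5, 48.6 and 180.4 CPM in sgRnf19a_IR, 19.5, 24.01 and 25.2 CPM in control_IR, 195, 211 and 213 CPM in sgRnf19a and 158, 161 and 136 CPM in control. It fell 2.07-fold in sgRnf19a cells (-1.05, SE 0.36, edgeR adjusted p = 0.0413; corrected -0.48) and 6.62-fold in control cells (-2.73, SE 0.38, edgeR adjusted p = 0.00018; corrected -1.43). Anln, which encodes the ring scaffold anillin, fell 2.29-fold in sgRnf19a and 8.903-fold in control cells (-3.15, corrected -2.37).

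Top2a and Mki67 together had the lowest median log2 fold change of the roles described, at -2.62 in sgRnf19a cells and -4.22 in control cells. Top2a, which encodes the topoisomerase that untangles sister chromatids, was at 221, 137 and 830.3 CPM in sgRnf19a_IR, 79.1, 78.2 and 73.2 CPM in control_IR, 1413, 1460 and 1379 CPM in sgRnf19a and 1398, 1298 and 715 CPM in control. In sgRnf19a_IR, replicate 4 was above control replicate 3, though below all sgRnf19a libraries. Top2a fell 3.58-fold in sgRnf19a cells (-1.84, SE 0.52, edgeR adjusted p = 0.0165) and 14.8-fold in control cells (-3.89, SE 0.57, edgeR adjusted p = 0.00021; corrected -2.73). Mki67, the gene of the Ki-67 proliferation marker, was at 30.6, 39.5 and 145 CPM in sgRnf19a_IR, 24.1, 22.1 and 20.1 CPM in control_IR, 744, 869 and 656 CPM in sgRnf19a and 659, 693 and 215 CPM in control. It fell 10.6-fold in sgRnf19a cells (-3.398, SE 0.58, edgeR adjusted p = 0.00097) and 23.6-fold in control cells (-4.56, SE 0.61, edgeR adjusted p = 0.000148; corrected -3.46). Per length, on the deposited FPKM scale, Top2a was the highest of the 40 in control (141 FPKM) and Cdc25c the lowest (7.60 FPKM). With IR in control cells Top2a was at 6.79 FPKM, and Cdc20 (112 FPKM) and Cdk1 (91.9 FPKM) had the 2 highest levels.

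**Figure D3:**
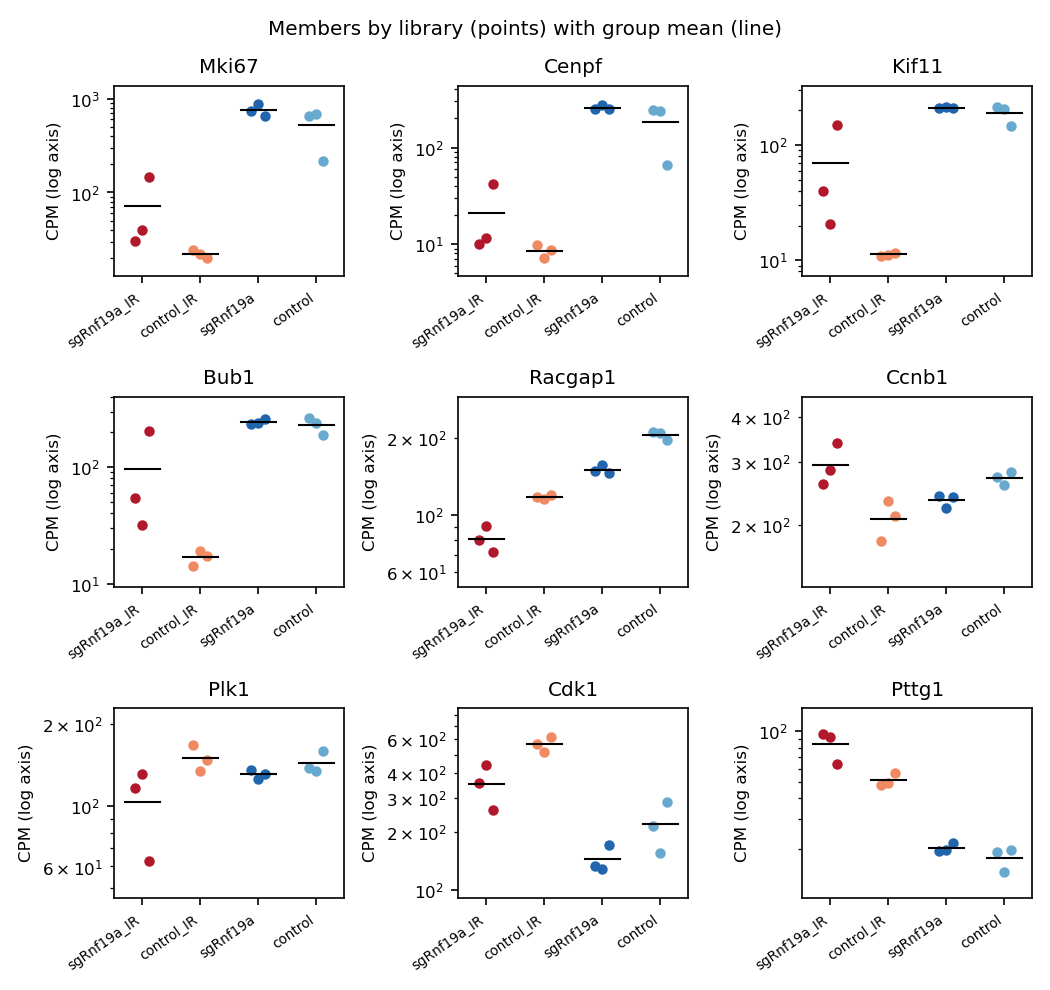
CPM of 9 genes in each library (points, log axis) with the group mean (line). Mki67, Cenpf, Kif11 and Bub1 are lowest in control_IR, Racgap1 is lower in sgRnf19a than in control with and without IR, Plk1 overlaps between IR-treated and untreated libraries of each line, and Cdk1 and Pttg1 are higher in IR-treated libraries.

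The change with IR was related to transcript length and to GC content. Among the 14 genes with transcripts over 4 kb, 13 fell and 1 rose with IR in sgRnf19a cells (median log2 fold change -1.62) and 11 fell and 1 rose in control cells (median -3.52). Among the 10 under 2 kb, 2 fell and 2 rose in sgRnf19a cells (median -0.111) and 2 fell and 4 rose in control cells (median 0.164). Corrected, 4 fell and 2 rose under 2 kb in each line (medians -0.274 in sgRnf19a and -0.26 in control cells), and the medians over 4 kb were -1.32 in sgRnf19a and -2.36 in control cells. The Spearman rank correlation of the log2 fold change with length was -0.698 over the 40 genes in sgRnf19a cells and -0.683 in control cells, against -0.412 and -0.461 over 13983 protein-coding genes; the genes share their libraries and are not independent. With GC content it was 0.53 in sgRnf19a cells and 0.714 in control cells, against 0.213 and 0.445 over protein-coding genes. After the correction the coefficient with length among the 40 was -0.588 in sgRnf19a and -0.581 in control cells, against -0.143 and -0.119 over protein-coding genes. Espl1, Ccnf and Cdk1, which are long by their longest coding transcript, lay off this order. Which transcript of a gene was expressed was not tested. Espl1, with a transcript of 6658 bases, was at -0.71 in sgRnf19a and -0.21 in control cells, Ccnf, at 4133 bases, was at -0.45 and 0.15, and Cdk1, at 4375 bases, rose. What part the shift in RNA kinds has in the falls was not tested beyond the correction.

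**Figure D4:**
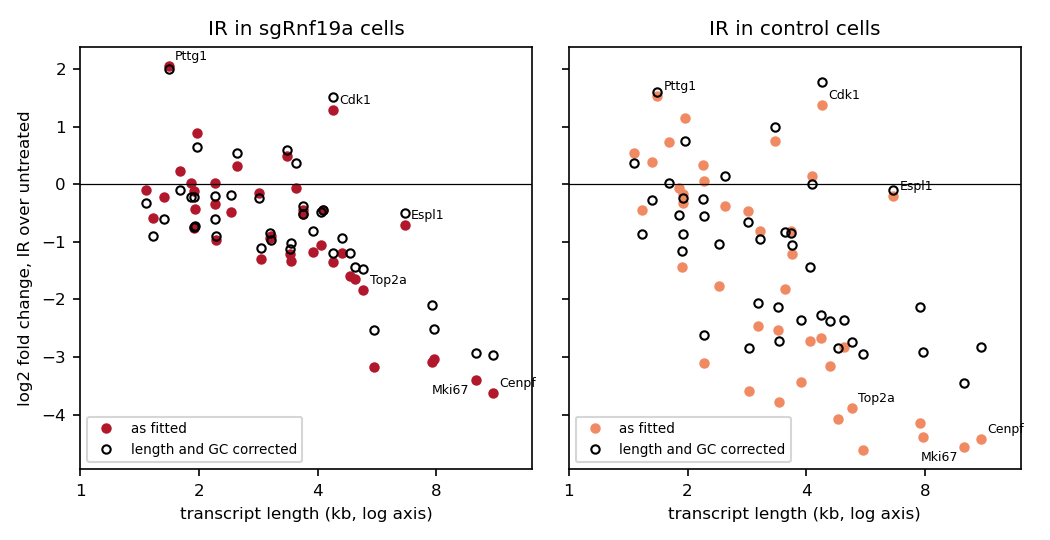
Log2 fold change with IR against the length of the longest coding transcript (log axis) for the 40 genes, as fitted (filled) and after the length and GC correction (open), in sgRnf19a cells (left) and control cells (right). Values fall with length in both panels, to -4.43 for Cenpf in control cells, while Cdk1, Ccnf and Espl1 lie above the other genes over 4 kb.

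Without IR the difference between the lines passed for 1 of the 40 genes. None rose and 1 fell, where 3.02% of all genes rose and 3.2% fell (6.22% in either direction), and 2 genes had an unadjusted p under 0.05. The gene that fell was Racgap1 (-0.45, SE 0.11, edgeR adjusted p = 0.0379), at 149, 157 and 146 CPM in sgRnf19a, against 211, 210.2 and 197 CPM in control. It was called in 11 of 19 alternatives, with adjusted p-values from 0.00331 to 0.156, and leaving out any 1 of the 6 libraries ended the call. The other gene with an unadjusted p under 0.05, Cdk1, had -0.60 (SE 0.24, edgeR adjusted p = 0.208) and overlapping libraries. Corrected, Ccnb1 (-0.39) and Nuf2 (-0.54) were called lower beside Racgap1 and none higher, where 4.81% of all genes were called lower and 5.04% higher. The libraries of the lines did not overlap for 10 higher and 9 lower genes, where this held for 22.3% and 15.9% of all genes. The median log2 fold change of the 40 was 0.0705, against 0.0285 over all genes, and -0.0434 without control replicate 3.

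Among IR-treated cells many of the genes that were lowest in control_IR were higher with the guide. The libraries of these 2 groups also differed in RNA kinds. The long-minus-short value was 0.10, -0.63 and 0.986 in sgRnf19a_IR and -1.03, -0.91 and -0.83 in control_IR, with no overlap. What part that shift has in the differences below was not tested beyond the correction. Of the 40, 21 were higher and 8 lower in sgRnf19a_IR than in control_IR, where 21% of all genes were higher and 12.8% lower (33.8% in either direction), and the median log2 fold change was 0.777, against 0.07. Libraries did not overlap for 24 higher and 12 lower genes, where this held for 23% and 19.5% of all genes. The called higher genes included 5 of 6 kinesins, 4 of 4 spindle proteins and 4 of 6 kinetochore genes (median 1.41). Corrected, the kinesins and spindle proteins gave the same counts, and 1 of 6 kinetochore genes was called higher (median 0.285). Kif11 was 6.25-fold higher (2.64, SE 0.55, edgeR adjusted p = 0.00434), Bub1 5.75-fold (2.52, SE 0.52, edgeR adjusted p = 0.00437), Hmmr 5.52-fold (2.46) and Ttk 5.18-fold (2.37). The lower genes were Ccnf, Cdk1, Cdc20, Espl1, Cenpa, Birc5, Cdca8 and Racgap1, between -0.73 (Espl1) and -0.47 (Birc5) on the log2 scale. Racgap1 was at -0.54 (SE 0.12, edgeR adjusted p = 0.00488) and was called in all 19 alternatives. Corrected, 15 were higher and 6 lower, where 18.4% of all genes were higher and 10.3% lower, and the median was 0.285, against 0.159 over all genes; Kif11 was at 1.63, Bub1 at 1.54, Hmmr at 1.53 and Ttk at 1.605, all called. The genes no longer called when corrected were Ccnb1, Pttg1, Kif20b, Cenpe, Nuf2, Knl1 and Mki67 among the higher and Cdc20 and Cdca8 among the lower, and Kif2c was called higher. Without sgRnf19a_IR replicate 4, 17 were higher and 6 lower and the median was 0.377, with Kif20b, Cenpe, Knl1 and Mki67 no longer called higher and Cdk1 and Cdc20 no longer called lower. Over all genes, 4880 of 19217 were then called in either direction and the median was 0.013. With only the 2 groups fitted, 12 were higher and 4 lower, and without control_IR replicate 1 or 5 the lower genes also numbered 4. Calls over all genes were then 2797 of 15307, 3877 of 19505 and 4366 of 19523, in the same order. The IR comparison in control cells and this one share the control_IR libraries, so their values enter both.

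The Spearman rank correlation of this log2 fold change with GC content was -0.804 over the 40 genes, against -0.525 over 13983 protein-coding genes, and with length it was 0.432, against 0.273. The 8 lower genes had a GC content of 47.3% (Cenpa) to 56.1% (Espl1), and the 40 genes ranged from 37.7% (Knl1) to 56.1%. In sgRnf19a_IR, replicates 1 and 3 alone were above all control_IR libraries for Kif11 (40.2, 20.6 and 149.7 CPM in sgRnf19a_IR, against 10.97, 11.04 and 11.7 CPM in control_IR) and for Nusap1, Hmmr and Ndc80. The same held for all 24 genes whose libraries did not overlap on the higher side, as 23% of all genes did. Kif20b, Cenpe, Knl1 and Mki67, no longer called without replicate 4, were among the 24.

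**Figure D5:**
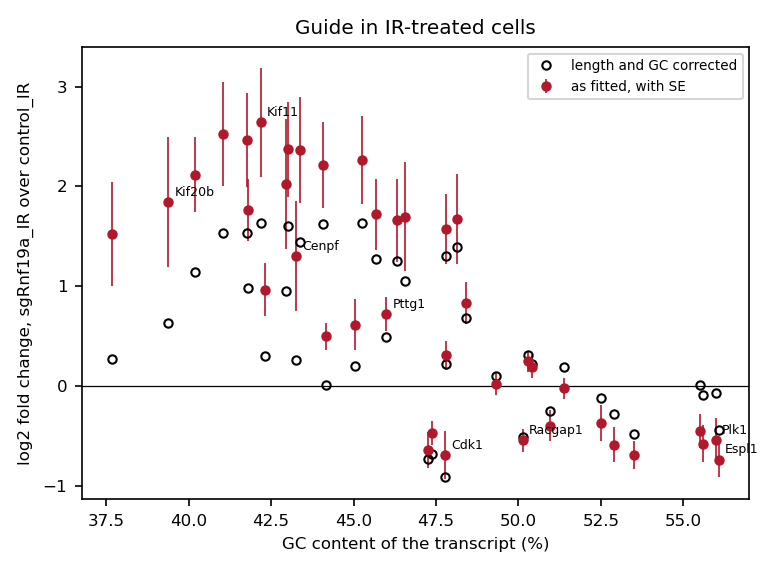
Log2 fold change of sgRnf19a_IR over control_IR against the GC content of the transcript (percent) for the 40 genes, as fitted with SE bars (filled) and after the length and GC correction (open). Genes of low GC content such as Kif11 (2.64) are higher with the guide and genes of high GC content such as Espl1 (-0.73) lower.

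The difference between the 2 changes with IR passed for none of the 40 genes by edgeR, where 0.544% of all genes had a higher and 0.137% a lower difference (0.682% in either direction). At an unadjusted p under 0.05 there were 15 genes with a higher and 3 with a lower difference. The share of all genes at that threshold was not taken, so these counts have no background. DESeq2 called 12 of the 40 higher and 0 lower, where it called 1675 of 13475 genes in either direction. Nusap1 had the smallest edgeR adjusted p (log2 difference 1.76, SE 0.43, edgeR adjusted p = 0.0799), and was the 1 gene called when corrected (1.21, edgeR adjusted p = 0.0244), where 2.18% of all genes had a higher and 0.649% a lower corrected difference. Over its alternatives the adjusted p ran from 0.0026 to 0.265, and 6 of 24 called it. Kif11 and Bub1 had log2 differences of 2.49 and 2.45 (SE 0.74 and 0.71, edgeR adjusted p = 0.11 and 0.107). Corrected, these were 1.65 and 1.703 (edgeR adjusted p = 0.0997 and 0.0642). Without sgRnf19a_IR replicate 3, 16 genes had a called higher and 3 a called lower difference, where 2624 of 19537 genes were called in either direction. Without replicate 4 there were 7 and 0, where 500 of 19217 genes were called. The 7 were Bub1, Ttk, Kif11, Nusap1, Hmmr, Ndc80 and Ect2, at 0.93 to 1.34 on the log2 scale.

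Of a wider list of 109 other mitotic genes, 15 rose, 45 fell and 49 were not called with IR in sgRnf19a cells, where 18% of all genes rose and 17.6% fell. In control cells 20 rose, 59 fell and 30 were not called, where 22.2% of all genes rose and 25.7% fell. The medians were -0.381 in sgRnf19a cells and -0.458 in control cells. Condensin and cohesin genes, which fold and hold the sister chromatids, gave 0 rises and 10 falls of 16 in sgRnf19a cells and 1 and 14 in control cells. Kinesins and spindle genes that are not among the 40 gave 0 and 15 of 20 in sgRnf19a cells and 0 and 16 in control cells. Subunits of the anaphase-promoting complex and checkpoint genes went both ways, with 7 rises and 3 falls of 20 in sgRnf19a cells and 8 and 6 in control cells. By smallest p, the falls were led by Cit (-0.99), Incenp (-1.13) and Cdca2 (-1.14) in sgRnf19a cells and by Arhgap11a (-2.78, corrected -2.18), Anapc4 (-1.91, corrected -1.18) and Kif14 (-2.81, corrected -1.76) in control cells, all log2 fold changes. The rises were led by Anapc15 (1.48), Anapc16 (1.48) and Cks2 (1.52) in sgRnf19a cells and by Anapc15 (1.89), Cdc26 (1.68) and Cks1b (1.5, corrected 0.80) in control cells. Between the lines, the guide changed 1 of the 109 without IR, Cks2 (-0.87, edgeR adjusted p = 0.0243), where 3.02% of all genes were higher and 3.2% lower. With IR 41 were higher and 14 lower with the guide, where 21% of all genes were higher and 12.8% lower, so the lower count is near that of all genes. They were led by Anapc4 (1.53), Mastl (2.93, corrected 1.86) and Lin9 (1.72, corrected 0.98) upward and Cdc26 (-1.01), Ncaph2 (-0.90) and Cenpw (-1.304, corrected -1.93) downward. Of the 109, the difference between the changes with IR passed for Anapc4 (1.61, SE 0.29, edgeR adjusted p = 0.0334), a scaffold subunit of the anaphase-promoting complex. Over all genes 0.544% had a higher and 0.137% a lower difference, so 1 of 109 is near that share. Corrected, the difference passed for 6 of the 109, all higher, where 2.18% of all genes had a higher and 0.649% a lower one.

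Among regulators of this programme that were listed by symbol, Cdkn1a rose with IR. This gene of the Cdk inhibitor p21 was at 376, 426 and 214 CPM in sgRnf19a_IR, 444, 371 and 442 CPM in control_IR, 191, 179 and 196 CPM in sgRnf19a and 181, 146 and 170.3 CPM in control. Its IR-treated libraries were above the untreated ones in both lines, by 0.84 (SE 0.21, edgeR adjusted p = 0.00926) in sgRnf19a and 1.34 (SE 0.21, edgeR adjusted p = 0.000348) in control cells on the log2 scale. Foxm1, a transcription factor of G2 and M genes, fell in sgRnf19a cells (-0.59, edgeR adjusted p = 0.0117) and was at -0.33 in control cells (edgeR adjusted p = 0.104), where it was called lower when corrected (-0.42, edgeR adjusted p = 0.00501). Mybl2, which encodes B-Myb, passed in neither line (-0.075 in sgRnf19a and 0.41 in control cells). Wee1, the kinase that holds Cdk1 inactive, fell in both (-0.53 in sgRnf19a and -0.80 in control cells).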

How the data were processed

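RNA of 12 libraries (4 groups of 3) was extracted with RNeasy, depleted of ribosomal RNA, made into libraries with the NEB RNA Ultra Directional kit and sequenced as paired reads on a NextSeq 500, per the labels' protocols. The submitters' processing notes name Bowtie2, HTSeq, DESeq2, mm10 and GRCm39, without versions or roles. The authors deposited a table of counts for 55401 genes, treated here like estimated or expected counts. Among long transcripts a value of 4 was found 5833 times, a value of 3 only 961 times and a value of 5 only 959 times, so a count is not a single read and total counts overstate the depth. The authors also deposited FPKM values for 29549 genes, used for levels per length and as an alternative. A further 12 columns, deposited beside the FPKM values, repeat the same counts and were not used. The names of the IR columns carry replicate numbers that the labels do not give, and went to the IR groups, the ones left over once the untreated columns were matched.

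Counts were rounded and fitted with edgeR 4.0.16 in R 4.3.3 (filter with a minimum count of 10 and a minimum total of 15, TMM factors, robust quasi-likelihood fit of 4 group means, Benjamini-Hochberg adjustment over 18183 genes, calls at an adjusted p under 0.05). SE was taken as the size of the log2 fold change over the root of the F statistic. The length and GC correction fits splines with 5 degrees of freedom per library on the log2 length and GC content of the longest coding transcript in GENCODE M21. Scripts were tested on simulated data. Alternatives were RLE, upper-quartile and protein-coding scaling, no filter, counts divided by 4, only the groups compared, each library left out, DESeq2 1.42.0, and limma 3.58.1 on log2 of FPKM plus 1 or 0.1, with and without a minimum mean of 0.5 FPKM. Leaving out sgRnf19a_IR replicate 4 with the correction, and both libraries that stood apart, were chosen after seeing the data. All 40 genes are named, of the wider list at most 3 per direction by smallest p, and 5 further genes by symbol. The members and lists were chosen with earlier results of these data known. Python 3.11.15, pandas 2.3.3 and matplotlib 3.10.9 were used for tables and figures.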

Additional observations from a re-analysis of the deposited data

Results flagged for a closer look

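Ccnb1 moved in opposite directions in the 2 lines with IR, with no overlap between libraries: its log2 fold change was 0.33 in sgRnf19a cells and -0.38 in control cells. The difference of 0.70 did not pass (edgeR adjusted p = 0.1), nor did the value in sgRnf19a cells (edgeR adjusted p = 0.08). Corrected for transcript length and GC content, Ccnb1 was at 0.55 in sgRnf19a cells and 0.14 in control cells, so the directions were no longer opposite. With the guide, 3 genes lay higher among IR-treated cells and lower among untreated cells, again with no overlap between libraries. Of all genes, 23% did not overlap on the higher side with IR and 15.9% on the lower side without. The share of all genes with both was not taken, so this count has no background. As fitted, none of the 3 was called without IR, and Kif2c was not called with IR (edgeR adjusted p = 0.0887). Ccnb1 was at 0.50 with IR and -0.21 without, and corrected at 0.013 with IR (not called) and -0.39 without. Kif2c was at 0.25 with IR and -0.07 without, and the difference of 0.32 did not pass (edgeR adjusted p = 0.245). Nuf2 was at 0.97 with IR and -0.31 without, and the difference of 1.28 did not pass (edgeR adjusted p = 0.107). Corrected, Nuf2 was at 0.30 with IR (edgeR adjusted p = 0.143, not called) and -0.54 without.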

How the results depend on the processing

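With IR in control cells the count of genes called lower stayed within 1.5 times of 26 in every alternative run, and the higher genes numbered 3 on the FPKM scale with either pseudocount and without a filter. Over all genes, these FPKM fits called 8153 of 12753, 8013 of 12753 and 8352 of 29549 in either direction. In sgRnf19a cells the lower genes numbered 8 with only the groups compared, 33, 33 and 32 in the FPKM fits, 29 with the correction and without sgRnf19a_IR replicate 4, and 11 to 25 with 1 library left out. Calls over all genes moved too, at 4418 of 16886 with only the groups compared. They were 8114 of 12753, 7999 of 12753 and 8300 of 29549 in the FPKM fits, and 8143 of 19217 corrected without that replicate. With 1 library left out they ran from 4722 of 18239 (sgRnf19a replicate 2) to 8773 of 19217 (sgRnf19a_IR replicate 4). For the guide in untreated cells the lower genes numbered 0 with RLE factors, 0 without a filter, 3 when corrected, 2 (and 1 higher) with only the groups compared, and 0 with any 1 library left out. Over all genes the calls were 1094 of 18183, 968 of 29550, 1791 of 18183 and 2825 of 17301 in the first 4 of these. With 1 library left out they ran from 642 of 18239 to 911 of 18278. For the guide in IR-treated cells 12 were higher and 4 lower with only the groups compared, 7 were higher in FPKM without a filter, 5 were lower with the correction and without sgRnf19a_IR replicate 4, and 15 to 23 were higher and 4 to 11 lower with 1 library left out. Over all genes the calls were 2797 of 15307, 2952 of 29549 and 4075 of 19217 in the first 3 of these. With 1 library left out they ran from 3877 of 19505 to 7612 of 19537. The difference between the changes with IR gave 12 higher genes with DESeq2, 1 when corrected, and 6 corrected and without sgRnf19a_IR replicate 4. It gave 10 without both libraries that stood apart, and 0 to 16 higher and 0 to 3 lower with 1 library left out. For this difference calls over all genes moved as well, from 124 of 18183 as fitted to 1675 of 13475 with DESeq2 and 515 of 18183 when corrected. They were 627 of 19217 corrected and without sgRnf19a_IR replicate 4, and 647 of 18681 without both libraries. With 1 library left out they ran from 5 of 19523 (control_IR replicate 5) to 2624 of 19537 (sgRnf19a_IR replicate 3). With 1 library left out of IR in control cells the counts were 5 to 6 higher and 25 to 26 lower, and in sgRnf19a cells 4 to 5 higher. Over all genes, calls in control cells then ran from 7383 of 18278 to 8144 of 18367. Among genes called in at least 1 of the fits set side by side, signs turned for Ccnb1 (0.14) and Plk1 (-0.55) when corrected and Ccnf (-0.32) in FPKM plus 1 in control cells. In sgRnf19a cells they turned for Aurka (-0.42, -0.43 and -0.42 in the FPKM fits, -0.35 corrected without sgRnf19a_IR replicate 4) and Ube2c (-0.46 and -0.46 in FPKM plus 1 and plus 0.1). For the guide with IR, Kif20b (-0.16) and Knl1 (-0.15) turned when corrected without sgRnf19a_IR replicate 4. The cause was not tested. Scaling moved the median of all genes with IR in control cells to 0.187 with upper-quartile factors (8 higher and 23 lower) and -0.337 in FPKM plus 1 (3 and 31), against -0.0205. With upper-quartile factors 5 were higher and 14 lower with IR in sgRnf19a cells, and 19 and 11 for the guide with IR, where FPKM plus 1 gave 17 and 11. Over all 18183 genes, upper-quartile factors called 9110 with IR in control cells, 6332 in sgRnf19a cells and 6387 for the guide with IR. For the guide with IR, FPKM plus 1 called 4991 of 12753.

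Deviations of same-numbered untreated libraries from their group means correlated at -0.157, -0.00962 and 0.0329. Those of differently numbered libraries correlated at -0.109 to 0.105. With groups of 3 this cannot decide whether the numbers mark a shared batch, which was not tested further. With a replicate block 1 gene was higher and 4 lower for the guide in untreated cells. Over all genes, 3262 of 17301 were called in either direction with the block, against 2825 of 17301 in the same libraries without it. No paired analysis was possible for the other comparisons because the IR columns carry other numbers.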
